A study of Mus musculus with 12 samples.

Results

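The comparison described here is that of 2 uninjured kidney groups, control mice labelled as given captopril and control mice labelled as given water, and how their kidney cortex differed along the nephron and in its metabolism. Captopril is an inhibitor of angiotensin-converting enzyme. The members are the 6 libraries whose labels read control and either captopril (Control_captopril, 3 libraries) or water (Control_water, 3 libraries), out of 12 in the series. The other 6 came from mice with glomerulonephritis (GN) and carry the labels captopril (GN_captopril, 3 libraries) or water (GN_water, 3 libraries). All 12 libraries are labelled as kidney cortex of adult male C57BL/6 mice, a wild-type inbred strain with no transgene. Glomerulonephritis was produced with horse spleen apoferritin, 10 mg into the peritoneum 5 times a week, plus 100 µg of lipopolysaccharide 3 times a week, over 6 weeks; all controls had saline by the same route and schedule, and kidneys were collected at week 9. The labels give no dose of captopril. Sample titles hold a pair of numbers each, with nothing in the labels on whether 1 mouse or a pool of 2 stands behind a library, so every p-value below measures the spread between libraries.

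The nephron filters blood in the glomerulus and then recovers the filtrate segment by segment. The proximal tubule takes back most sodium, phosphate, glucose and amino acids and secretes organic ions, and it makes glucose and burns fatty acids. The thick ascending limb, distal convoluted tubule, connecting tubule and collecting duct adjust salt, calcium, magnesium, acid and water. Renin, released by granular cells beside the glomerulus, starts the angiotensin cascade, and angiotensin-converting enzyme makes angiotensin II from its precursor. In mouse kidney the proximal tubule is known to differ between the sexes in many transporters and enzymes.

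Before any result, 3 checks of the labels are given. Xist, the RNA that silences 1 X chromosome in female cells, had 375, 315 and 345 CPM in Control_captopril, against 0, 0.182 and 0.0645 CPM in Control_water. CPM are counts per 1000000 counts of the library total, after scaling between libraries by TMM, the trimmed mean of M-values. The sum of 4 Y-linked genes (Ddx3y, Kdm5d, Uty and Eif2s3y) was 0.0897, 0.0461 and 0.101 CPM in Control_captopril, against 143.8, 127.1 and 121.1 CPM in Control_water. The libraries labelled Control_captopril therefore held abundant Xist and almost no Y-linked RNA, those labelled Control_water the reverse, and the first of these patterns goes against the label male. In the GN libraries the pattern was turned round, with Xist at 0.0664, 0.0549 and 0.0717 CPM in GN_captopril, against 208.9, 211.8 and 181.0 CPM in GN_water. Each group is thus uniform for these markers, and the treatment label and the sex-linked markers coincide fully within the controls: differences that go with captopril and differences that go with the sex-linked markers cannot be told apart in any result below.

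Ren1, which encodes renin, was the second check, since blocking angiotensin-converting enzyme is known to raise renin in mouse kidney. It had 63.4, 78.2 and 82.8 CPM in Control_captopril, against 1142, 1083 and 1794 CPM in Control_water. The groups did not overlap, and the libraries labelled captopril were the lower ones (log2 fold change -4.16 ± 0.23 (SE), adjusted p = 2.37e-08, edgeR's quasi-likelihood test with Benjamini-Hochberg adjustment over all 14618 genes tested, as for every adjusted p in the text). In the GN pair the order was the opposite, with 499, 691 and 438 CPM in GN_captopril, against 23.3, 30.2 and 20.8 CPM in GN_water (log2 fold change 4.45 ± 0.24 (SE)). The direction in the controls is the reverse of the one known for this drug, so group names are used here for what the labels say, and every direction is that of libraries labelled Control_captopril relative to libraries labelled Control_water. Whether the treatment labels of the control groups were exchanged was not tested and cannot be settled from the labels; an exchange would turn round every direction given. The Ren1 promoter is shown because renin is the gene on which the check of the captopril label rests. It is from RefSeq on GRCm38.p6, 250 bases before to 50 after the most upstream start, at chr1:133350424-133350723 on the plus strand, with a TATA box (TATAAA, at -29 from the start) in capitals.
Ren1: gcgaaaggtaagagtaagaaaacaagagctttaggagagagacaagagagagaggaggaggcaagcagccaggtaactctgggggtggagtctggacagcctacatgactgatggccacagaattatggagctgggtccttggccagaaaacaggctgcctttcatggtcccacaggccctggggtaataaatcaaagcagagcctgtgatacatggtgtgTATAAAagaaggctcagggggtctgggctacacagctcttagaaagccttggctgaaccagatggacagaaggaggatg

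**Figure D1:**
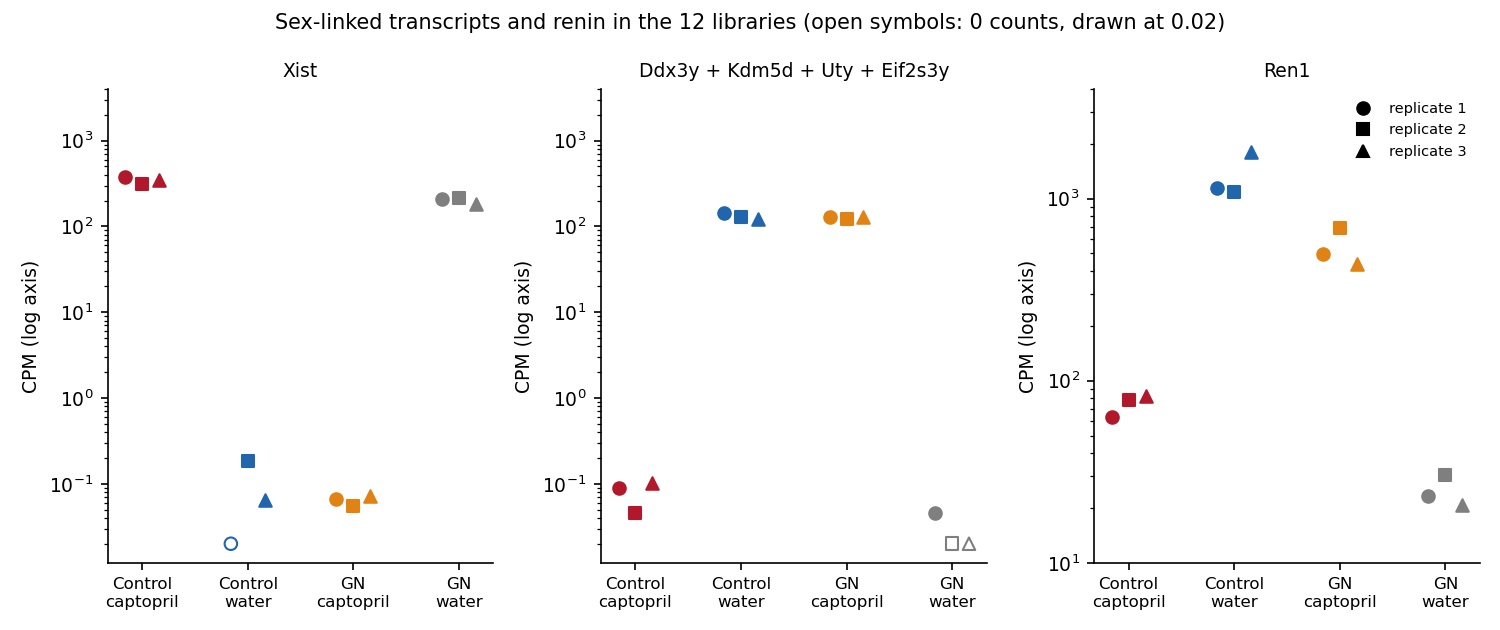
Level in CPM (log axis) of Xist, of the sum of 4 Y-linked genes and of Ren1 in each of the 12 libraries, by labelled group, with open symbols for 0 counts drawn at 0.02. Xist is high in Control_captopril and GN_water, while the Y-linked sum and Ren1 are high in Control_water and GN_captopril.

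The third check concerned adrenal RNA. Counts of 11 genes of the adrenal cortex, the outer steroid-making layer of the gland that lies on the kidney, summed to 176, 43 and 7080 in Control_captopril, against 44, 24 and 38 in Control_water. Control_captopril library 3 stood apart, and results that rest on it are given with and without it. Across the series, library totals ran between 14173414 and 22842776 counts, from 19564203 to 22165008 in Control_captopril and from 16491308 to 22842776 in Control_water. Libraries of 1 group correlated at Spearman rho 0.991 to 0.996 across genes, and differed by more than counting noise (chi-square per degree of freedom 5.08 to 13.9), so all were kept as separate libraries.

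Of the 14618 genes tested, 2247 (15.4%) were higher and 2484 (17.0%) were lower in Control_captopril than in Control_water at an adjusted p under 0.05, and these 2 percentages are the background for the counts of members below. The difference was at least 2-fold for 368 of the higher and 352 of the lower genes. The median log2 fold change over all tested genes was 0.015. The share of all tested genes whose 2 groups did not overlap was not counted. Most named genes were picked by adjusted p or by that lack of overlap, so a lack of overlap below only describes the values. Without Control_captopril library 3 the counts were 1921 higher and 2144 lower. On the X chromosome 104 of 482 tested genes (21.6%) were higher and 46 (9.54%) lower, whereas on single autosomes between 13.0% and 18.4% were higher and between 14.3% and 20.1% lower. Of 6 X-linked genes known to escape silencing, 5 were higher and none lower, among them Kdm6a, a histone demethylase gene (log2 fold change 0.88 ± 0.10 (SE)), and Eif2s3x, a translation factor gene (0.73 ± 0.05).

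The highest ranks among the genes that were higher in Control_captopril belonged, after Xist, to an enzyme of conjugation and an enzyme that makes histamine. Ugt1a2, a UDP-glucuronosyltransferase, had 1531, 1464 and 1638 CPM in Control_captopril, against 2.19, 2.31 and 2.84 CPM in Control_water (log2 fold change 9.31 ± 0.22 (SE), adjusted p = 6.3e-12). It shares exons with the other Ugt1a genes, so how reads were divided among them is uncertain. Hdc, histidine decarboxylase, had 35.7, 51.4 and 84.7 CPM in Control_captopril, against 0.233, 0.364 and 0.258 CPM in Control_water (log2 fold change 7.64 ± 0.43 (SE), adjusted p = 3.08e-08). Genes of this ranking were taken only where the 2 groups did not overlap, so their separation is not a further result. Igf2, insulin-like growth factor 2, had 126, 78.6 and 155 CPM in Control_captopril, against 0.931, 0.789 and 1.81 CPM in Control_water (log2 fold change 6.70 ± 0.34 (SE), adjusted p = 1.11e-08). Prlr, the prolactin receptor, had 299, 243 and 328 CPM in Control_captopril, against 15.6, 11.7 and 9.35 CPM in Control_water (log2 fold change 4.55 ± 0.29 (SE), adjusted p = 8.28e-08). Slc7a12, an amino acid transporter, had 365, 246 and 284 CPM in Control_captopril, against 12, 14.3 and 5.93 CPM in Control_water (log2 fold change 4.78 ± 0.35 (SE), adjusted p = 3.04e-07). For these 3 genes too the lack of overlap was set by the ranking. The others by the same ranking were Abcc3, an export pump for organic anions (log2 fold change 5.69 ± 0.31), Slc17a2, of the SLC17 anion transporter family (6.28 ± 0.35), Tmprss6, a membrane serine protease known in liver for its control of iron (5.49 ± 0.35), Pvalb, a calcium-binding protein of the distal convoluted tubule (5.11 ± 0.22), Slc22a29, of the organic anion transporter family (3.78 ± 0.16), and Star, which is taken up with the adrenal genes.

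Among genes that were lower, several were near or at 0 in Control_captopril. Slco1a1, an organic anion transporter of the proximal tubule, had 0, 0 and 0 CPM in Control_captopril, against 184, 207 and 306 CPM in Control_water, and was at least 4814-fold lower, taking 3 counts over the group as the floor. Mup7, a major urinary protein gene, was likewise at 0 in all Control_captopril libraries, against 7.31, 39.0 and 2.90 CPM in Control_water, and at least 336-fold lower; the Mup genes are near copies of each other, so its level is uncertain. Of the Y-linked genes, Eif2s3y was at 0 in Control_captopril and at least 893-fold lower. With 1 to 3 counts in the Control_captopril group, Control_water exceeded it 1961 times for Uty (95% counting interval 351 to 77493), 925 times for Ddx3y (316 to 4487) and 1011 times for Kdm5d (181 to 39995). The fitted fold changes of these 6 genes depend on the prior count, so their sizes are not given; they served to rank these genes and enter the medians of lists that hold them.

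The remaining genes of this ranking were measured in both groups. Pzp, of the alpha-2-macroglobulin family of protease inhibitors, had 0.135, 0.276 and 0.202 CPM in Control_captopril, against 127, 113 and 137 CPM in Control_water (log2 fold change -9.22 ± 0.24 (SE), adjusted p = 1.54e-11). Slc7a13, the cystine and aspartate transporter of the straight proximal tubule, had 1.75, 1.66 and 1.72 CPM in Control_captopril, against 759.7, 825 and 838 CPM in Control_water (log2 fold change -8.88 ± 0.13 (SE), adjusted p = 6.73e-14). Acsm3, a medium-chain acyl-CoA synthetase, had 6.91, 5.30 and 7.03 CPM in Control_captopril, against 1261, 1392 and 1295 CPM in Control_water (log2 fold change -7.68 ± 0.18 (SE), adjusted p = 5.87e-12). In all 3 the libraries of each group lay close together, while the lack of overlap was set by the ranking. Cyp2j13, a cytochrome P450 whose family holds near copies, had 1.57, 0.783 and 1.47 CPM in Control_captopril, against 452, 369 and 457 CPM in Control_water (log2 fold change -8.38 ± 0.19 (SE), adjusted p = 4.96e-12). Cyp7b1, the oxysterol 7-alpha-hydroxylase, had 5.20, 1.89 and 1.97 CPM in Control_captopril, against 180.1, 217 and 159.7 CPM in Control_water (log2 fold change -5.92 ± 0.24 (SE), adjusted p = 1.17e-09). Apoh, a phospholipid-binding plasma protein, had 0.180, 0 and 0.0506 CPM in Control_captopril, against 9.08, 13.9 and 13.5 CPM in Control_water (log2 fold change -7.16 ± 0.43 (SE), adjusted p = 4.81e-08).

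**Figure D2:**
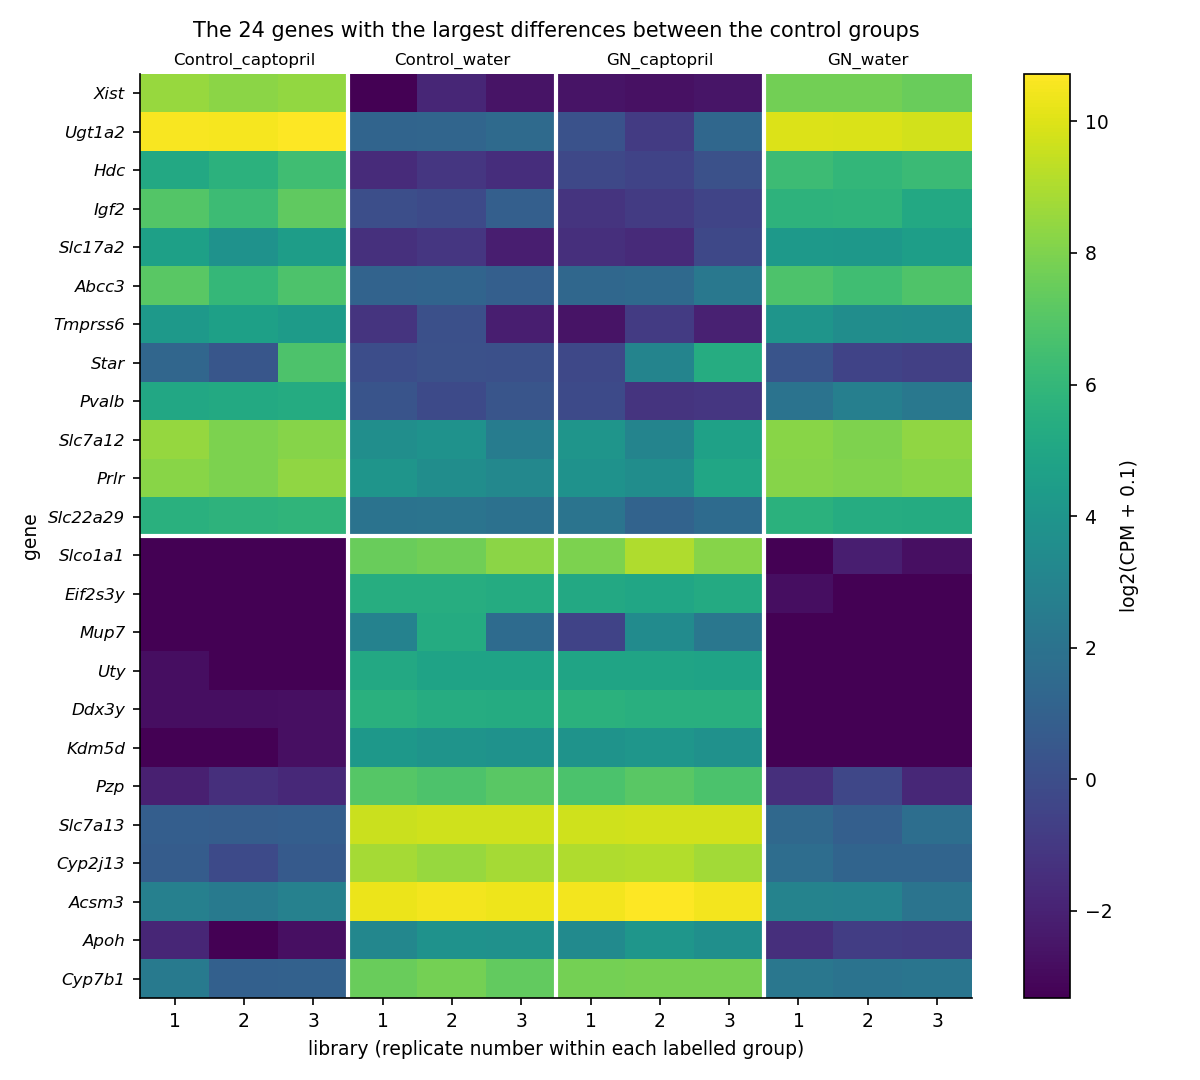
Heat map of log2(CPM + 0.1) for the 24 genes with the largest differences between the control groups, 12 higher above the white line and 12 lower below it, in each of the 12 libraries. For nearly all of them the colours of GN_captopril resemble Control_water and those of GN_water resemble Control_captopril; Star stands apart, with its highest values in Control_captopril library 3 and GN_captopril library 3.

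RefSeq promoters were found for 8 of the 12 higher and 10 of the 12 lower genes. Those of 3 genes are shown, Pzp from the lower and Slc22a29 and Hdc from the higher side, because they hold motifs named for factors that act in kidney and liver and so let the letters of both sides be set side by side. Capitals mark an HNF1 half-site (GTTAAT or, on the other strand, ATTAAC) or a half-site of the androgen and glucocorticoid receptors (AGAACA or, on the other strand, TGTTCT). The windows are on GRCm38.p6, at chr6:128526671-128526970 on the minus strand for Pzp, chr19:8218851-8219150 on the minus strand for Slc22a29 and chr2:126618629-126618928 on the minus strand for Hdc, each written in the direction of transcription. The annotated spans of Slc22a29 and Hdc reach further upstream, to 8253375 and 126624025, so these 2 windows lie at a start within the gene.
Pzp: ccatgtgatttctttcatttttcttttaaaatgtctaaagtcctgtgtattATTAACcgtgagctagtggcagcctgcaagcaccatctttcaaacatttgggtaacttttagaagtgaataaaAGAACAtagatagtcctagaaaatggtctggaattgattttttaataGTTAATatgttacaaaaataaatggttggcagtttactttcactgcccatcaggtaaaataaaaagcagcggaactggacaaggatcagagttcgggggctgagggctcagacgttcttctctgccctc
Slc22a29: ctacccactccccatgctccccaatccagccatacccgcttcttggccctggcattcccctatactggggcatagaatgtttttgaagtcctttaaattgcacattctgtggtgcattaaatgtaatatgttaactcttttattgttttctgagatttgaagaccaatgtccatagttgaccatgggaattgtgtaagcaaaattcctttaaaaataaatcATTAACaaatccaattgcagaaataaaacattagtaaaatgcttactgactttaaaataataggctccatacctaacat
Hdc: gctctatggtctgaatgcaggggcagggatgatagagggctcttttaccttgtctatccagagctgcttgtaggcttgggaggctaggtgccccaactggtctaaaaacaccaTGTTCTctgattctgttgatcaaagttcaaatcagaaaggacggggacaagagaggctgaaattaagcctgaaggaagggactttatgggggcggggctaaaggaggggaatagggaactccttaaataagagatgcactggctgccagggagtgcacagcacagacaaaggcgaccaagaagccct
Pzp held 2 HNF1 half-sites and 1 receptor half-site, Slc22a29 held 1 HNF1 half-site, and Hdc held 1 receptor half-site. Over the promoters of all 11079 tested genes with an entry, 4.76% held the HNF1 half-site and 12.8% the receptor half-site. The receptor half-site was in 3 of the 8 higher and 2 of the 10 lower promoters, and the HNF1 half-site in 1 of the 8 and 1 of the 10. The TATA box (TATAAA) was in 7.48% of all, in 1 of the 8 and in 3 of the 10. Searched in the same way on both strands, TTCNNNGAA (a STAT site) was in 7.17% of all, in 1 of the 8 and none of the 10; TGACG (the cAMP response half-site) in 30.1%, 1 and 4; and CAAAGTCCA (an HNF4 site) in 0.451% and in neither set. A match is a run of letters in this window and not evidence of binding.

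Along the nephron, the markers of distal segments were mostly higher in Control_captopril, whereas proximal markers were divided. In bulk tissue fewer cells of a type and less RNA per cell cannot be told apart, and the cortex piece taken also sets how much of each segment is present. Of 20 markers of intercalated cells, the acid- and base-secreting cells of the collecting duct, 19 were higher and none lower, with a median log2 fold change of 0.57. Of 17 markers of the distal convoluted tubule 13 were higher and none lower (median 0.75), of 23 of the connecting tubule and principal cells 17 were higher and 1 lower (median 0.51), and of 20 of the thick ascending limb 9 were higher and 2 lower (median 0.22). No marker of intercalated cells or of the distal convoluted tubule was lower at an unadjusted p under 0.05 or with DESeq2 either (0 of 20 and 0 of 17). The lone lower gene among the connecting tubule and principal cell markers became 2 without Control_water library 1. Summed over each list, intercalated cell markers ran from 1937 to 2047 CPM in Control_captopril, against 1300 to 1438 CPM in Control_water, and distal convoluted tubule markers from 3960 to 4168 CPM in Control_captopril, against 2341 to 2807 CPM in Control_water. These sums did not overlap between the groups.

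**Figure D3:**
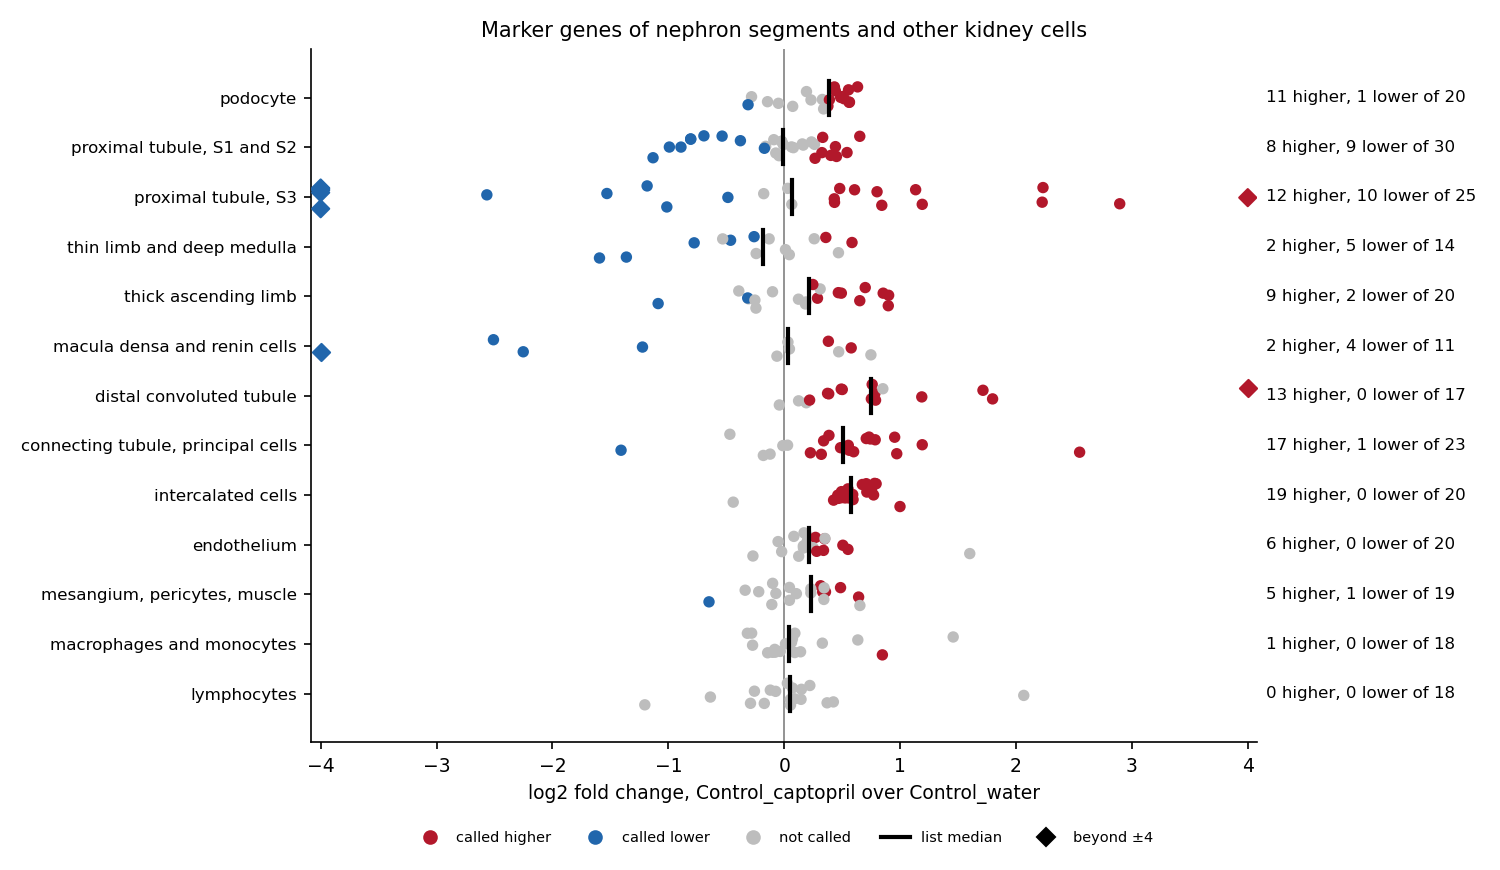
Log2 fold change of each marker gene, Control_captopril over Control_water, by nephron segment or cell type, with 1 point per gene, red for called higher, blue for called lower and grey for not called at an adjusted p of 0.05, bars at list medians and diamonds for values beyond ±4. Intercalated cell, distal convoluted tubule and connecting tubule markers lie to the right of 0, while those of the straight proximal tubule spread to both sides.

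In the distal convoluted tubule, Slc12a3, the thiazide-sensitive sodium chloride cotransporter, had 891, 942 and 838 CPM in Control_captopril, against 592, 446 and 516 CPM in Control_water (log2 fold change 0.78 ± 0.12 (SE), adjusted p = 0.000185). Trpm6, the magnesium channel of this segment, had 25.8, 28.6 and 29 CPM in Control_captopril, against 9.78, 7.28 and 8.19 CPM in Control_water (log2 fold change 1.72 ± 0.12 (SE), adjusted p = 1.69e-07). Calb1, the calcium buffer calbindin, had 499.5, 588 and 525 CPM in Control_captopril, against 203, 132 and 127 CPM in Control_water (log2 fold change 1.80 ± 0.18 (SE), adjusted p = 5.9e-06). All 3 genes of salt, magnesium and calcium recovery were higher. Klhl3, an adaptor of the ubiquitin ligase that controls the kinases upstream of this cotransporter, had a log2 fold change of 1.19 ± 0.13, and Pvalb, given above, also belongs to this segment.

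In the connecting tubule and collecting duct, Klk1, tissue kallikrein, had 3387, 3963 and 3651 CPM in Control_captopril, against 1963, 1816 and 1834 CPM in Control_water (log2 fold change 0.97 ± 0.07 (SE), adjusted p = 1.97e-07). S100g, a calcium-binding protein, had 566, 599.9 and 547 CPM in Control_captopril, against 257, 259 and 235 CPM in Control_water (log2 fold change 1.19 ± 0.10 (SE), adjusted p = 7.97e-07). Aqp4, a basolateral water channel of principal cells, had 100.4, 76.1 and 75.8 CPM in Control_captopril, against 9.78, 21.9 and 11.9 CPM in Control_water (log2 fold change 2.55 ± 0.28 (SE), adjusted p = 1.49e-05). These 3 lay apart between the groups by a wider margin than Scnn1a, the alpha subunit of the epithelial sodium channel, which had 183, 183 and 183 CPM in Control_captopril, against 154, 134 and 132 CPM in Control_water (log2 fold change 0.39 ± 0.07 (SE), adjusted p = 0.000514). Aqp2, the vasopressin-regulated apical water channel, overlapped between the groups, with 153, 129.6 and 125 CPM in Control_captopril, against 115, 200.2 and 148 CPM in Control_water (adjusted p = 0.5). Tfcp2l1, a transcription factor of the collecting duct, had a log2 fold change of 0.73 ± 0.07. In intercalated cells, the proton pump subunit genes Atp6v0a4 (log2 fold change 0.59 ± 0.06), Atp6v1g3 (0.71 ± 0.08) and Atp6v1c2 (0.75 ± 0.07) were higher, as was Oxgr1, the 2-oxoglutarate receptor, with 54.1, 60.8 and 53 CPM in Control_captopril, against 30.8, 27 and 25.9 CPM in Control_water (log2 fold change 0.999 ± 0.10 (SE), adjusted p = 8.7e-06).

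In the thick ascending limb, Umod, which encodes uromodulin, had 5323, 4077 and 4523 CPM in Control_captopril, against 3059, 3289 and 2516 CPM in Control_water (log2 fold change 0.65 ± 0.13 (SE), adjusted p = 0.00164). Kcnj1, the ROMK potassium channel, had 426, 418 and 386 CPM in Control_captopril, against 223, 222 and 216 CPM in Control_water (log2 fold change 0.90 ± 0.09 (SE), adjusted p = 3.79e-06). Both were higher without overlap, but Slc12a1, the furosemide-sensitive cotransporter that defines the segment, was not called and overlapped, with 1101, 845 and 820.1 CPM in Control_captopril, against 1056, 1078 and 833 CPM in Control_water (adjusted p = 0.633). Irx1, a homeobox gene (log2 fold change -1.09 ± 0.10), and Sostdc1, a secreted antagonist of BMP and Wnt ligands (-0.32 ± 0.05), were the 2 lower members. Of 14 tested markers of the thin limb and deep medulla, 2 were higher and 5 lower, among the lower ones Krt19, a keratin, at 1.54 ± 0.204 CPM in Control_captopril and 4.05 ± 1.67 CPM in Control_water (SD, n = 3 each). This count of 5 fell to 2 without Control_captopril library 2 or 3 and to 3 without Control_water library 2 or 3, and the count of 2 fell to 1 without any single library other than Control_captopril library 2.

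In the proximal tubule, the 30 markers of the convoluted part (S1 and S2) held 8 higher and 9 lower genes (median -0.01), and the 25 of the straight part (S3) held 12 higher and 10 lower genes (median 0.07), leaving 3 uncalled. Summed S1 and S2 markers ran from 22977 to 23605 CPM in Control_captopril, against 27410 to 29976 CPM in Control_water. Slc34a1, the main sodium phosphate cotransporter of the apical membrane, had 4338, 4757 and 4651 CPM in Control_captopril, against 7976, 7016 and 7234 CPM in Control_water (log2 fold change -0.69 ± 0.09 (SE), adjusted p = 4.41e-05). Slc34a3, its relative, went the other way, with 83.9, 101 and 101 CPM in Control_captopril, against 63.5, 63.5 and 54.7 CPM in Control_water (log2 fold change 0.65 ± 0.12 (SE), adjusted p = 0.00111). Neither gene overlapped between the groups. Slc22a6, the OAT1 transporter that takes organic anions from blood, had 576, 604 and 698 CPM in Control_captopril, against 1366, 1307 and 1443 CPM in Control_water (log2 fold change -1.13 ± 0.09 (SE), adjusted p = 6.63e-07), and Ggt1, gamma-glutamyltransferase of the brush border, had 835, 829 and 926 CPM in Control_captopril, against 1641, 1688 and 1821 CPM in Control_water (log2 fold change -0.99 ± 0.07 (SE), adjusted p = 1.24e-07). Slc17a1 (log2 fold change -0.81 ± 0.06) and Slc17a3 (-0.89 ± 0.08), apical exporters of urate and organic anions, were lower too. Lrp2, the endocytic receptor megalin, was called higher (log2 fold change 0.33 ± 0.09 (SE), adjusted p = 0.0152) although the groups overlapped, and it missed the threshold when Control_captopril library 1, Control_water library 2 or Control_water library 3 was left out. The 8 higher S1 and S2 genes became 5 without Control_water library 2 and 4 without Control_water library 3. In S3, besides Slc7a13, Slco1a1, Cyp7b1 and Slc7a12 above, Mogat1, an acyltransferase of triglyceride synthesis, had 29.7, 23.5 and 28.4 CPM in Control_captopril, against 166, 161 and 156 CPM in Control_water (log2 fold change -2.57 ± 0.10 (SE), adjusted p = 5.47e-10).

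In the glomerulus, 11 of 20 podocyte markers were higher and 1 lower (median 0.38). Synpo, the actin-binding synaptopodin, had 92.2, 98.3 and 105 CPM in Control_captopril, against 77.7, 65 and 75.7 CPM in Control_water (log2 fold change 0.43 ± 0.07 (SE), adjusted p = 0.000552). Wt1, a transcription factor (log2 fold change 0.56 ± 0.12), and Plce1, phospholipase C epsilon (0.51 ± 0.11), were higher as well. The lower member, Vegfa, named after its values were seen, had a log2 fold change of -0.31 ± 0.10; a lower member was not called when Control_captopril library 1, 2 or 3 or Control_water library 1 was left out, and 2 were without Control_water library 2. Of 20 endothelial markers 6 were higher and none lower (3 higher without Control_captopril library 2), with Pecam1 at 0.35 ± 0.06 and Ehd3, known in glomerular endothelium, at 0.55 ± 0.09 on the log2 scale. Of 19 markers of mesangium, pericytes and smooth muscle 5 were higher, Pdgfra the first by p (0.64 ± 0.09), and 1 was lower, the collagen gene Col1a1 (-0.65 ± 0.13); the 5 became 3 without Control_captopril library 1 or 2 or Control_water library 1 or 2.

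Few leukocyte genes were called between the control groups. Of 18 macrophage and monocyte markers 1 was higher, Cd14, the lipopolysaccharide co-receptor (log2 fold change 0.85 ± 0.20 (SE), adjusted p = 0.00489), and none lower; the list summed to 196 to 280 CPM in Control_captopril, against 230 to 238 CPM in Control_water. Without Control_water library 1 the count was 2. Of 18 lymphocyte markers none was called in either direction by edgeR with all 12 libraries (1 higher and 2 lower at an unadjusted p under 0.05), while DESeq2 and edgeR on the 6 control libraries alone each called 1 higher and 1 lower; their sums overlapped, at 25.4 to 39.1 CPM in Control_captopril and 27.1 to 29.0 CPM in Control_water. Jchain, the joining chain of secreted antibodies, had 5.70, 8.89 and 3.90 CPM in Control_captopril, against 1.63, 1.58 and 1.16 CPM in Control_water (adjusted p = 0.0673), not called although the groups did not overlap. It was called higher with DESeq2, with the 6 control libraries alone, with the replicate number as a block and without both libraries with most adrenal RNA.

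Of 18 tested genes of the renin, angiotensin and kinin systems 5 were higher and 5 lower. Ace, the enzyme that captopril inhibits, had 251, 213 and 271 CPM in Control_captopril, against 381, 392 and 355 CPM in Control_water (log2 fold change -0.62 ± 0.10 (SE), adjusted p = 0.000452), and was lower like Ren1. Agt, the precursor angiotensinogen, had 97.1, 81.9 and 90.0 CPM in Control_captopril, against 76.9, 95 and 79.3 CPM in Control_water, and Agtr1a, the type 1 angiotensin receptor, had 51.8, 55.6 and 56.9 CPM in Control_captopril, against 55.6, 54.8 and 60.1 CPM in Control_water. Both overlapped and were not called (adjusted p = 0.468 and 0.542). Kng2, a kininogen gene and the substrate of kallikreins, was higher (log2 fold change 0.70 ± 0.07 (SE), adjusted p = 9.24e-06); so was Atp6ap2, the prorenin receptor (0.37 ± 0.05). Of 11 markers of the macula densa and renin cells 2 were higher and 4 lower; the 2 became 1 without Control_water library 2 or 3. The lower ones were Ren1, Gja5, the connexin 40 gene of renin cells (log2 fold change -1.22 ± 0.14 (SE), adjusted p = 1.51e-05), Pappa2, a protease that cleaves IGF-binding proteins, with 0.673, 0.507 and 0.759 CPM in Control_captopril, against 4.24, 2.49 and 4.32 CPM in Control_water (log2 fold change -2.51 ± 0.28 (SE), adjusted p = 1.55e-05), and Ptgs2, cyclooxygenase 2, with 0.494, 0.184 and 0.152 CPM in Control_captopril, against 1.07, 1.58 and 1.48 CPM in Control_water (log2 fold change -2.25 ± 0.37 (SE), adjusted p = 0.000383). Pappa2 and Ptgs2 were at low levels.

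Among metabolic genes, those of cholesterol and fatty acid synthesis were mostly lower in Control_captopril, while those of respiration stayed within a narrow range. Of 30 genes of cholesterol and fatty acid synthesis 3 were higher and 21 lower, with a median log2 fold change of -0.52. Idi1, isopentenyl diphosphate isomerase, had 50.6, 46.5 and 39.6 CPM in Control_captopril, against 179.7, 181 and 211 CPM in Control_water (log2 fold change -2.06 ± 0.10 (SE), adjusted p = 9.59e-09). Me1, the malic enzyme that supplies NADPH, had 358, 334 and 361 CPM in Control_captopril, against 864, 812 and 809 CPM in Control_water (log2 fold change -1.24 ± 0.06 (SE), adjusted p = 4.99e-09). Both were lower with no overlap. The 3 higher members included Elovl6, a fatty acid elongase, with 111, 96.9 and 106 CPM in Control_captopril, against 32.3, 22.2 and 26.3 CPM in Control_water (log2 fold change 1.95 ± 0.12 (SE), adjusted p = 4.49e-08), and Scd1, a fatty acid desaturase named after its values were seen (log2 fold change 1.28 ± 0.20).

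**Figure D4:**
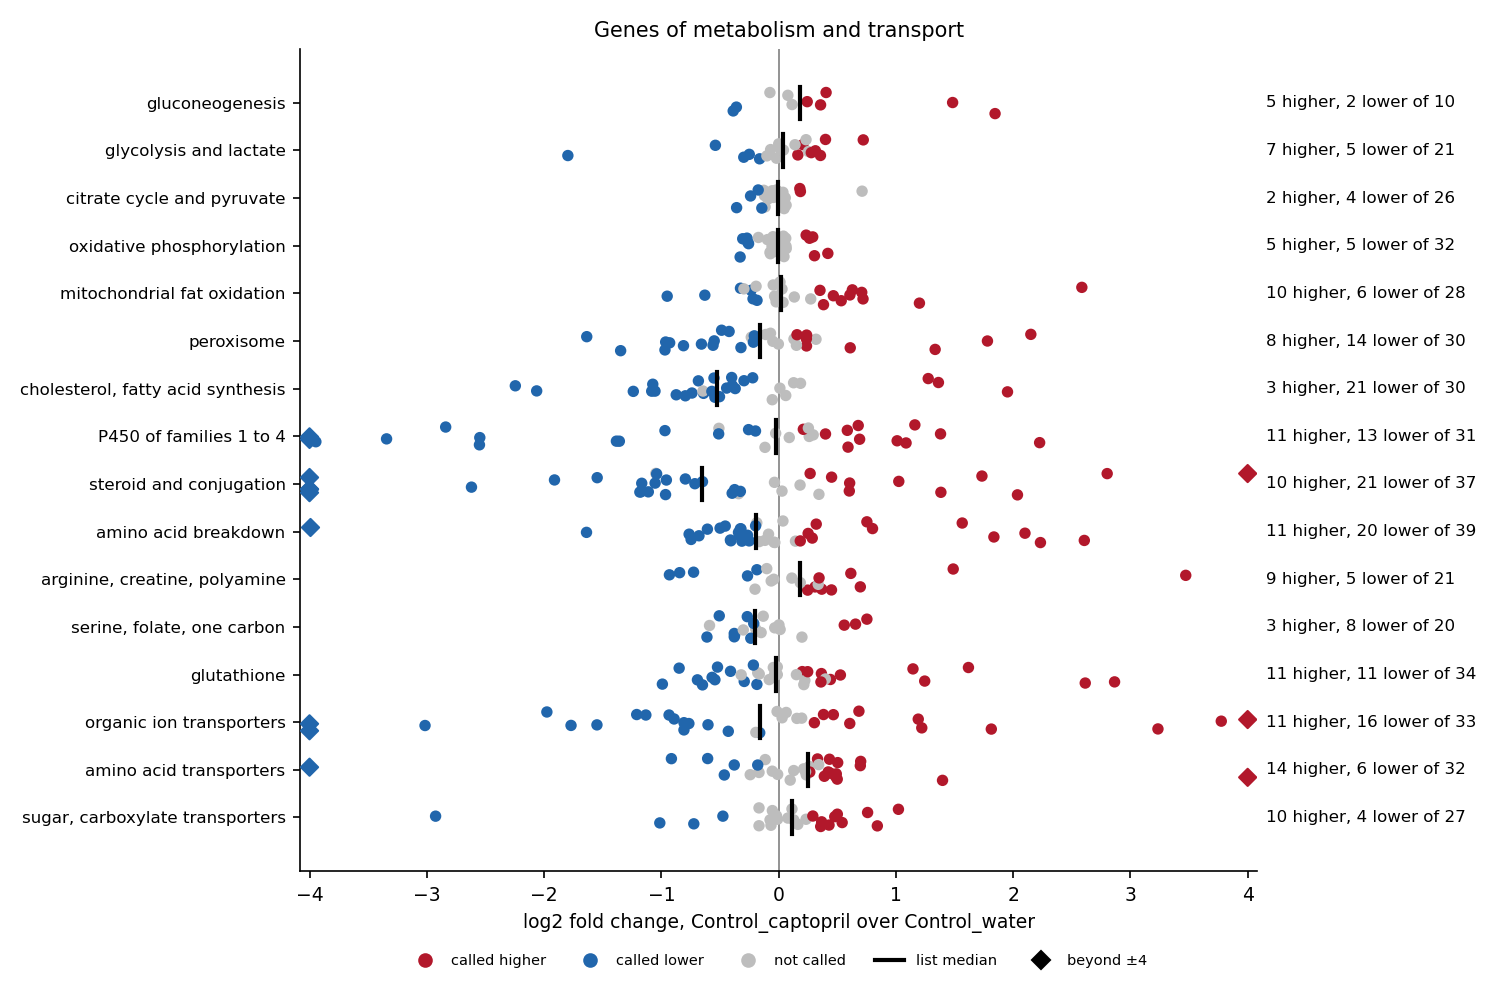
Log2 fold change of each gene, Control_captopril over Control_water, in 16 lists of metabolism and transport, with 1 point per gene, red for called higher, blue for called lower and grey for not called at an adjusted p of 0.05, bars at list medians and diamonds for values beyond ±4. Cholesterol and fatty acid synthesis and steroid conjugation have medians left of 0, and oxidative phosphorylation and the citrate cycle lie near 0.

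Of 32 nuclear genes of oxidative phosphorylation 5 were higher and 5 lower (median -0.01), with no member beyond 0.42 in log2 fold change on either side. Slc25a4, the mitochondrial ADP/ATP carrier, had a log2 fold change of 0.42 ± 0.05, and Ndufv1, a subunit of complex I, of -0.31 ± 0.05. Of 26 genes of the citrate cycle and pyruvate 2 were higher and 4 lower; the 2 became 1 without Control_captopril library 1 or Control_water library 2 or 3, and the 4 became 2 without Control_captopril library 1 or 2 or Control_water library 3. Of 28 genes of mitochondrial fatty acid oxidation 10 were higher and 6 lower, with Acsl1, an acyl-CoA synthetase, at 1.20 ± 0.07, Hadhb, the beta subunit of the trifunctional protein, at 0.61 ± 0.05, Acads, short-chain acyl-CoA dehydrogenase, at -0.63 ± 0.05 and Acat1, acetoacetyl-CoA thiolase, at -0.95 ± 0.06. Within the same pathway, members were called in both directions. Of 30 peroxisomal genes 8 were higher and 14 lower (median -0.16), the higher ones 5 without Control_captopril library 3. Acot3, an acyl-CoA thioesterase, had 77.7, 62.4 and 75 CPM in Control_captopril, against 18.4, 15.1 and 14.7 CPM in Control_water (log2 fold change 2.15 ± 0.11 (SE), adjusted p = 1.02e-08), and Amacr, which racemises branched fatty acids and bile acid precursors, had 118, 118 and 119 CPM in Control_captopril, against 354, 361 and 387 CPM in Control_water (log2 fold change -1.64 ± 0.09 (SE), adjusted p = 2.33e-08). Hacl1, which shortens phytanic acid (1.78 ± 0.08), was higher, and Pecr, an enoyl-CoA reductase (-1.35 ± 0.05), lower.

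Pck1, cytosolic phosphoenolpyruvate carboxykinase, the controlling enzyme of glucose synthesis, had 4281, 2778 and 4329 CPM in Control_captopril, against 1596, 1149 and 1326 CPM in Control_water (log2 fold change 1.48 ± 0.18 (SE), adjusted p = 3.97e-05). All Control_captopril libraries lay above all Control_water libraries, and Pck1 was also higher in GN_captopril than in GN_water (log2 fold change 0.70 ± 0.18, adjusted p = 0.00653), unlike most genes called in both pairs. Of 10 genes of gluconeogenesis 5 were higher and 2 lower (1 lower without Control_captopril library 2 or 3 or Control_water library 1). G6pc, glucose-6-phosphatase, which releases the glucose made, was lower (log2 fold change -0.39 ± 0.10 (SE), adjusted p = 0.00863), and Creb3l3, a transcription factor, was higher at low level, with 2.45 ± 0.471 CPM in Control_captopril and 0.687 ± 0.299 CPM in Control_water (log2 fold change 1.85 ± 0.32 (SE), adjusted p = 0.00069, SD, n = 3 each). Of 21 genes of glycolysis and lactate 7 were higher and 5 lower: Pkm, pyruvate kinase, had a log2 fold change of 0.40 ± 0.05, Pgam1, phosphoglycerate mutase, of 0.36 ± 0.05, Ldha, lactate dehydrogenase A, of -0.54 ± 0.05, and Ldhd, D-lactate dehydrogenase, had 426, 399 and 409.6 CPM in Control_captopril, against 1328, 1503 and 1458 CPM in Control_water (log2 fold change -1.80 ± 0.07 (SE), adjusted p = 1.21e-09).

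Enzymes of drug, steroid and lipid conversion had wide differences in both directions. Of 31 cytochrome P450 and related genes 11 were higher and 13 lower (median -0.025), and their summed level was 6873 to 7960 CPM in Control_captopril, against 13404 to 14930 CPM in Control_water. Most of the difference in that summed level lay in Cyp4b1 and Cyp2e1. Cyp4b1, a P450 of fatty acid hydroxylation, had 441, 516 and 508 CPM in Control_captopril, against 4668, 4724 and 5467 CPM in Control_water (log2 fold change -3.34 ± 0.12 (SE), adjusted p = 3.5e-10). Cyp2e1, which oxidises ethanol and ketones, had 115, 108 and 138 CPM in Control_captopril, against 1828, 1736 and 1987 CPM in Control_water (log2 fold change -3.95 ± 0.25 (SE), adjusted p = 9.01e-08). Ephx2, soluble epoxide hydrolase, had 266, 265 and 260.0 CPM in Control_captopril, against 715, 649.5 and 698 CPM in Control_water (log2 fold change -1.38 ± 0.07 (SE), adjusted p = 1.17e-08). Each was lower in all Control_captopril libraries. Of 37 genes of steroid, bile acid and sulfate conjugation 10 were higher and 21 lower (median -0.65), among them Ugt2b37 (-5.54 ± 0.20) and Ugt2b38 (-2.62 ± 0.08), glucuronosyltransferases of a family with near copies. Of 34 glutathione genes 11 were higher and 11 lower, each count 7 without 1 library (Control_water library 1 for the higher, Control_captopril library 3 or Control_water library 2 for the lower). Gsta4, a glutathione transferase that handles products of lipid peroxidation, had 121, 164 and 129 CPM in Control_captopril, against 17.5, 18.8 and 20.8 CPM in Control_water (log2 fold change 2.87 ± 0.12 (SE), adjusted p = 1.73e-09).

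Amino acid breakdown held 11 higher and 20 lower of 39 genes (median -0.20). Aadat, an aminotransferase of the kynurenine and lysine pathways, had 1724, 1442 and 1863 CPM in Control_captopril, against 381, 397 and 292 CPM in Control_water (log2 fold change 2.23 ± 0.12 (SE), adjusted p = 2.05e-08). Kynu, kynureninase of tryptophan breakdown, had a log2 fold change of 2.10 ± 0.15, and Hpd, of tyrosine breakdown, of 1.84 ± 0.14. Cbs, cystathionine beta-synthase, had 109, 101 and 97.4 CPM in Control_captopril, against 312, 317 and 326 CPM in Control_water (log2 fold change -1.64 ± 0.06 (SE), adjusted p = 3.5e-10). Of 21 genes of arginine, creatine, polyamines and ammonia 9 were higher and 5 lower (3 lower without Control_water library 2 or 3). Arg2, the mitochondrial arginase of kidney, had 58.8, 40.1 and 51.8 CPM in Control_captopril, against 3.58, 5.77 and 4.38 CPM in Control_water (log2 fold change 3.47 ± 0.17 (SE), adjusted p = 8.21e-09). Oat, ornithine aminotransferase, which acts on its product, had 563, 479 and 547 CPM in Control_captopril, against 202, 191 and 173 CPM in Control_water (log2 fold change 1.49 ± 0.10 (SE), adjusted p = 2.07e-07). Both enzymes after arginine were higher, whereas Odc1, the first enzyme of polyamine synthesis (-0.93 ± 0.11), and Ass1, argininosuccinate synthase (-0.84 ± 0.07), were lower. Of 20 genes of serine, folate and one-carbon metabolism 3 were higher and 8 lower: the cytosolic and mitochondrial serine hydroxymethyltransferases went apart, Shmt1 at 0.75 ± 0.07 and Shmt2 at -0.61 ± 0.07. Of 25 genes of NAD, purines and pyrimidines 4 were higher and 9 lower, the 4 becoming 1 or 2 when Control_captopril library 1 or 3 or any Control_water library was left out; Upp2, uridine phosphorylase 2, had a log2 fold change of -2.04 ± 0.16. Of 23 genes of retinoids, vitamin D and phosphate 5 were higher, 3 without Control_captopril library 1, and 5 lower. Of 20 genes of lipid droplets and triglycerides 3 were higher, 5 without Control_captopril library 2 or Control_water library 1, and 3 lower, Cd36, a fatty acid uptake receptor, among the lower ones (-1.53 ± 0.13).

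In transport, 11 of 33 organic anion and cation transporter genes were higher and 16 lower (median -0.16), with a summed level of 8162 to 8774 CPM in Control_captopril, against 12417 to 12655 CPM in Control_water. Within the Slc22 family of organic ion transporters, Slc22a30 had 12.7, 8.84 and 11.8 CPM in Control_captopril, against 217, 213 and 189 CPM in Control_water (log2 fold change -4.22 ± 0.14 (SE), adjusted p = 1.13e-10). Slc22a28 had 26.5, 31.1 and 33.3 CPM in Control_captopril, against 255, 241 and 237 CPM in Control_water (log2 fold change -3.02 ± 0.08 (SE), adjusted p = 2.72e-11). Slc22a29, of the same family, had 48.4, 53.2 and 59.1 CPM in Control_captopril, against 3.96, 4.07 and 3.68 CPM in Control_water (log2 fold change 3.78 ± 0.16 (SE), adjusted p = 1.73e-09). Of these 3 family members 2 were thus lower and 1 higher. Of 32 amino acid and peptide transporter genes 14 were higher and 6 lower (median 0.25), Slc7a12 and Slc7a13 at the 2 ends. Of 27 genes of sugar and carboxylate transport 10 were higher and 4 lower, among the lower ones Slc5a8, a sodium-coupled lactate transporter (-1.01 ± 0.10), and Slc26a1, a sulfate and oxalate exchanger (-0.72 ± 0.09). Of 36 genes of sodium, acid-base and water transport 13 were higher and 5 lower; Car4, the membrane-bound carbonic anhydrase, had 107, 108 and 112 CPM in Control_captopril, against 243, 258 and 242 CPM in Control_water (log2 fold change -1.18 ± 0.06 (SE), adjusted p = 7.28e-09).

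Many of the genes above are known to differ between male and female mouse kidney, and lists of such genes were followed. Of 24 tested genes listed as higher in males 18 were lower in Control_captopril and 5 higher (median -2.70). The 5 were Slc7a7, Hsd3b4, Abcc3, Gsta4 and Prlr, named after their values were seen. Prlr had been placed on both the male and the female list, which is a flaw of these lists and says nothing on its known direction. Its mean was 290.1 CPM in Control_captopril and 282.1 CPM in GN_water, the groups with abundant Xist, against 12.2 CPM in Control_water and 19.0 CPM in GN_captopril. Without Prlr the male list held 4 higher and 18 lower of 23 genes, and the female list 9 higher and 10 lower of 24. Abcc3 and Gsta4, on the male list, also had their higher means in the groups with abundant Xist. Abcc3 had 106 CPM in Control_captopril and 103.5 CPM in GN_water, against 2.04 CPM in Control_water and 3.32 CPM in GN_captopril. For Gsta4 the means were 138, 109, 19.0 and 15.5 CPM in the same order of groups. Their place on the male list is therefore uncertain. Kap, the androgen-regulated kidney protein, had 9263, 7433 and 9909 CPM in Control_captopril, against 25952, 33891 and 32960 CPM in Control_water (log2 fold change -1.80 ± 0.17 (SE), adjusted p = 3.34e-06). Timd2, which binds ferritin (-3.86 ± 0.11), and Ugt8a, which makes galactosylceramide (-4.52 ± 0.14), were lower as well. Of 25 genes listed as higher in females 10 were higher and 10 lower. Gsta2, a glutathione transferase (1.62 ± 0.07), was among the higher and Fmo5, a flavin monooxygenase (-3.66 ± 0.11), among the lower. Fmo5 had a mean of 14.9 CPM in Control_captopril and 11.9 CPM in GN_water, against 187 CPM in Control_water and 210 CPM in GN_captopril. Acsm2, also on this list, had 2254, 2021, 7108 and 6794 CPM in the same order of groups. The place of both on the female list is uncertain. The split of this list therefore cannot show how closely the differences go with the sex-linked markers.

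Lists of injury and stress genes were followed next. Of 24 genes of tubular injury 6 were higher and 3 lower; the 6 became 3 without Control_captopril library 1 or Control_water library 1 or 3, and the 3 became 1 without Control_captopril library 2. The list summed to 3243 to 3667 CPM in Control_captopril, against 1656 to 1776 CPM in Control_water, without overlap. Its median log2 fold change was only 0.099, and 15 members were not called. Spp1, osteopontin, had 2289, 2636 and 2456 CPM in Control_captopril, against 847, 880.4 and 882 CPM in Control_water (log2 fold change 1.5 ± 0.09 (SE), adjusted p = 4.32e-08). Most of the difference in the list sum lay in Spp1 alone. Cdkn1a, a cell cycle inhibitor, had a log2 fold change of 1.11 ± 0.18. Lcn2, the NGAL protein of injured tubules, was lower at low level, with 2.29, 1.70 and 1.97 CPM in Control_captopril, against 3.86, 4.67 and 5.29 CPM in Control_water (log2 fold change -1.20 ± 0.33 (SE), adjusted p = 0.0134), and missed the threshold without Control_captopril library 2. Havcr1, KIM-1, had 4.49, 1.47 and 1.42 CPM in Control_captopril, against 2.42, 3.34 and 2.45 CPM in Control_water, and overlapped (log2 fold change -0.13 ± 0.37, adjusted p = 0.828). Control_captopril library 1 was the highest of the 6, and without it Havcr1 was called lower (log2 fold change -0.91). Of 22 interferon response genes 2 were higher and none lower: Gbp3, a guanylate-binding protein, had 86.4, 56.3 and 85.6 CPM in Control_captopril, against 9.08, 9.89 and 8.12 CPM in Control_water (log2 fold change 3.07 ± 0.26 (SE), adjusted p = 1.45e-06), and Ifi44 had a log2 fold change of 0.43 ± 0.09. Of 17 circadian clock genes 1 was higher, Bhlhe41 (0.81 ± 0.18), and 4 lower, among them Npas2 (-1.06 ± 0.24) and Per3 (-0.48 ± 0.11); without Control_water library 1 there were 4 higher, and without Control_water library 3 there were 2. Of 20 immediate early genes 5 were higher, such as Btg2 (0.57 ± 0.09), and 2 lower, the 2 becoming 0 without Control_captopril library 1 or 2 and 1 without Control_water library 1 or 3.

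The remaining lists of cell state had few calls. Of 22 matrix genes 1 was called each way; none was higher without Control_captopril library 2 or 3 or Control_water library 1 or 2, and 2 were lower without Control_water library 2. Of 16 proliferation genes 1 was higher, Tyms, thymidylate synthase (0.78 ± 0.09), and 2 were without Control_water library 1 or 2. Of 15 genes of the unfolded protein response 1 was higher, Ddit3, the CHOP transcription factor (0.40 ± 0.09), and 3 were without Control_water library 1. None of 12 antigen presentation genes was called by edgeR or DESeq2, nor was any at an unadjusted p under 0.05. Of 20 ribosomal protein genes 2 were higher, Rps4x and Rps14; neither was without Control_captopril library 2 or 3 or Control_water library 1, and 1 was without Control_captopril library 1 or Control_water library 3.

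The adrenal cortex genes were higher in 1 of the 3 Control_captopril libraries. Star, which carries cholesterol into mitochondria as the first step of steroid synthesis, had 54, 27 and 2164 counts in Control_captopril, against 19, 17 and 15 in Control_water. Hsd3b1, 3-beta-hydroxysteroid dehydrogenase, had 38, 1 and 1580 counts in Control_captopril, against 0, 1 and 0 in Control_water. Cyp21a1, steroid 21-hydroxylase, had 11, 0 and 1424 counts in Control_captopril, against 0 in each library of Control_water. Library 3 held nearly all of these counts, with small numbers in library 1 and at most background in library 2. Cyp11b1, which makes corticosterone, had 17, 0 and 1142 counts in Control_captopril and 0 in Control_water, and Cyp11a1, which cleaves the cholesterol side chain, had 13, 1 and 570 in Control_captopril, against 0, 0 and 2 in Control_water. Nr5a1, the transcription factor that defines steroid-making cells, had 1, 0 and 94 counts in Control_captopril and 0 in Control_water. Cyp11b2, aldosterone synthase of the outer zone, had 11 counts in Control_captopril library 3. In the GN libraries the sum of 11 genes was 20, 366 and 1695 counts in GN_captopril, against 55, 70 and 31 in GN_water. In total the 11 genes made up 0.0362% of all counts of library 3, or 362 per 1000000.

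**Figure D5:**
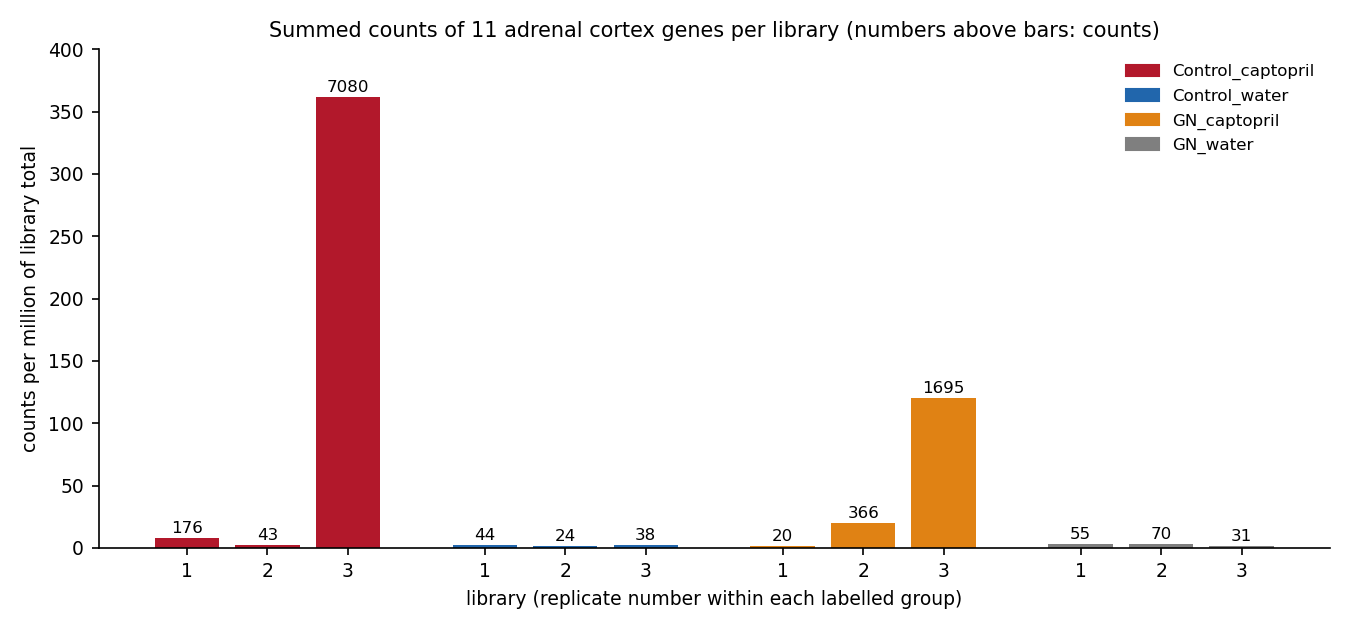
Counts per 1000000 of the library total (not scaled), summed over 11 adrenal cortex genes, 1 bar per library, with the counts above the bars. Control_captopril library 3 reaches 362 (7080 counts), GN_captopril library 3 reaches 120 (1695 counts) and GN_captopril library 2 reaches 19.6 (366 counts).

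Of 10978 genes at 5 CPM or more in Control_captopril library 3, 11 exceeded the highest other control library by more than 2 times. Among the 10 highest the ratio was 146 for Cyp21a1, 75.7 for Cyp11b1, 49.4 for Cyp11a1, 46.9 for Hsd3b1, 45.2 for Star and 26.2 for Akr1cl, and between 2.04 and 3.63 for Kcnk3, a potassium channel of the adrenal cortex, Akr1b7, an aldose reductase relative of the mouse adrenal, Angptl4, an inhibitor of lipoprotein lipase, and Per1, a clock gene. Genes of steroid synthesis thus led the list by a wide margin. Of the 13 tested genes of the full adrenal cortex list (22 genes) 6 were called higher in the comparison of groups, Star, Hsd3b1, Cyp21a1, Cyp11b1, Cyp11a1 and Akr1c18. The 3 called lower were Ephx2, Akr1d1 and Fdx1, with means of 688, 47.9 and 73.9 CPM in Control_water. For each of these 3, Control_captopril library 3 lay below every Control_water library, so they did not follow its adrenal RNA. Without library 3, 1 gene of the list was called higher, and likewise without any 1 of the Control_water libraries. With all libraries, the first 5 of the higher genes had standard errors between 1.71 and 4.01 on the log2 scale. Taken over the groups, Cyp21a1 was at least 401-fold and Cyp11b1 at least 324-fold higher in Control_captopril, against a floor of 3 counts over Control_water, while the ratio for Cyp11a1 was 245 (95% counting interval 67.5 to 2026) and for Hsd3b1 was 1357 (243 to 53649). These folds rest on library 3: without it Cyp21a1 was at least 4.46-fold and Cyp11b1 at least 6.89-fold higher, and the ratio was 8.51 (1.95 to 77.1) for Cyp11a1 and 47.4 (8.02 to 1919) for Hsd3b1. Akr1c18, 20-alpha-hydroxysteroid dehydrogenase, had 265, 69.8 and 178 CPM in Control_captopril, against 10.3, 19.7 and 8.64 CPM in Control_water (log2 fold change 3.74 ± 0.43 (SE), adjusted p = 2.02e-05), and so did not follow library 3.

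Other tissues beside the kidney were followed with lists of their own. Genes of the adrenal medulla did not move with those of the cortex: the summed counts of Th, Dbh, Pnmt, Chga and Chgb were 4, 1 and 3 in Control_captopril, against 0, 2 and 0 in Control_water, and of the 19 medulla and nerve genes Th, Dbh, Pnmt and Phox2a were at 0 in all control libraries. Of the 6 tested, Ddc, aromatic amino acid decarboxylase, which proximal tubule also expresses, and Gata2 were higher and Slc18a1 lower, none of them following library 3 (Ddc had 226, 193 and 179.5 CPM in Control_captopril, against 133, 130.2 and 129 CPM in Control_water). Of 14 tested fat genes none was higher (1 at an unadjusted p under 0.05, none with DESeq2, 1 in edgeR without Control_captopril library 2) and 1 lower, Lpl, lipoprotein lipase (log2 fold change -0.68 ± 0.21 (SE), adjusted p = 0.0221), with sums of 684 to 1296 CPM in Control_captopril, against 1310 to 1448 CPM in Control_water. Lpl missed the threshold without Control_water library 2 or 3, and also without both libraries with most adrenal RNA. Of 9 tested liver and pancreas genes 1 was higher, Apob (0.68 ± 0.10), with 2 higher without Control_water library 2, and 3 lower, and the pancreas genes Prss2, Cpa1, Amy2a5, Pnlip and Try4 were at 0. Serpina1a, of the alpha-1-antitrypsin genes, had 6.33, 5.76 and 4.60 CPM in Control_captopril, against 20.3, 64.9 and 32.9 CPM in Control_water (log2 fold change -2.81 ± 0.37 (SE), adjusted p = 6.4e-05). Of 13 blood genes Slc4a1, the anion exchanger of erythrocytes and intercalated cells, was called (0.59 ± 0.16), and missed the threshold without Control_captopril library 2. The part of these lists in the differences above was not tested.

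The GN libraries, which share no library with the controls, allow the same labels to be compared a second time. There, 2869 genes (19.6%) were higher and 3725 (25.5%) lower in GN_captopril than in GN_water. Of the 2247 genes that were higher in Control_captopril, 1557 (69.3%, or 41.8% of the 3725) were lower in GN_captopril and 51 (2.27%) were higher. Of the 2484 that were lower in Control_captopril, 1643 (66.1%, or 57.3% of the 2869) were higher in GN_captopril and 64 (2.58%) were lower. Thus genes called in both pairs had opposite signs far more often than the same sign, as did Xist, the Y-linked genes and Ren1. With the control labels exchanged, which was not tested, opposite signs would become the same sign and the reverse. The difference between the 2 differences was itself called for 7406 genes (50.7%), tested as an interaction in the same model. This interaction coincides fully with the sex-linked markers, which are turned round between the 2 pairs, so the 2 cannot be told apart. For Slc7a13, GN_captopril minus GN_water gave a log2 fold change of 8.42 ± 0.13 beside -8.88 ± 0.13 in the controls, for Ugt1a2 -9.55 ± 0.24 beside 9.31 ± 0.22, and for Slc34a1 0.64 ± 0.09 beside -0.69 ± 0.09. Of the 19 intercalated cell markers that were higher in Control_captopril all 19 were lower in GN_captopril, of the 17 in the connecting tubule list 15 were, and of the 13 in the distal convoluted tubule list 6 were. Slc12a3 was not called in the GN pair (-0.22, adjusted p = 0.14). Pck1, Igfbp3, an insulin-like growth factor binding protein (0.51 ± 0.12 in the controls and 0.36 ± 0.12 in the GN pair), and Bhlhe41 (0.81 ± 0.18 and 0.90 ± 0.18) were among the named genes higher in both pairs, and Lcn2, Col1a1, Sostdc1 and Npas2 among those lower in both.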

How the data were processed

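Gene expression was measured by stranded mRNA sequencing of kidney cortex in 12 libraries, 3 in each of 4 labelled groups. The deposited table holds expected counts per gene symbol made by the authors, not normalized, with 81.1% of nonzero entries whole within 1e-09. The submitters' processing notes name Bowtie2, Partek and mm10; the aligner's settings, the annotation and versions were not given in the sources used. Groups follow the labels alone. A companion table of RPKM was not used. Of 24452 symbols, 5604 had no count in any library.

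Expected counts were rounded and fitted with edgeR 4.0.16 (R 4.3.3): TMM scaling, filterByExpr (minimum count 10, minimum total 15), 1 mean per group over all 12 libraries, quasi-likelihood tests, two-sided, Benjamini-Hochberg over 14618 genes at 0.05. CPM use the scaled totals. Depth was 14173414 to 22842776 counts per library, and intervals for low counts cover counting error only. The interaction contrast compared the control and GN differences. Alternatives were RLE and upper-quartile scaling, a weak filter, unrounded counts, DESeq2 1.42.0, the 6 control libraries only, a replicate block, leaving out each control library, and leaving out both libraries with most adrenal RNA. The procedure was tested on simulated counts. Figures were drawn with Python 3.11.15, pandas 2.3.3 and matplotlib 3.10.9; limma 3.58.1 was loaded with edgeR. Promoters are from RefSeq (GRCm38.p6); 14576 of the tested symbols matched RefSeq.

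Named genes were the 12 higher and 12 lower genes with the largest log2 fold change among those called, at 5 CPM or more on average over the 6 controls, without overlap, leaving out predicted genes and antigen receptor segments; in each list at most 4 called genes, taken by adjusted p, or with none called the 2 with the highest level; 18 fixed genes of labels and segments; and the 10 genes with the largest ratio of Control_captopril library 3 to the highest other control. The members, the 53 lists and the rule were chosen with earlier results of these data known. No mitochondrially encoded gene of the 9 listed was in the table. Some genes that the rule names are not reported here.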

Additional observations from a re-analysis of the deposited data

Results flagged for a closer look

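The results below stand out because the difference between Control_captopril and Control_water differed from that between GN_captopril and GN_water, by the interaction test in edgeR (adjusted p under 0.05). This held for 7406 of 14618 genes. The contrast sets the groups with abundant Xist (Control_captopril and GN_water) against those with Y-linked RNA (Control_water and GN_captopril). A captopril difference that depends on GN therefore cannot be told apart here from a difference that goes with the sex-linked markers. Where a size follows, it is the control difference minus the GN difference on the log2 scale.

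Among the genes that were higher in Control_captopril, it was 18.86 for Ugt1a2, 14.20 for Hdc, 13.38 for Igf2, 11.96 for Slc17a2, 11.26 for Tmprss6, 10.67 for Abcc3, 8.97 for Slc7a12, 8.51 for Pvalb, 8.46 for Prlr and 7.64 for Slc22a29. Among those that were lower, it was -17.38 for Pzp, -17.3 for Slc7a13, -16.04 for Cyp2j13, -15.55 for Acsm3, -12.16 for Apoh and -11.63 for Cyp7b1. For genes with 3 counts or fewer in a group the size depends on the prior count and only the adjusted p of the edgeR interaction test is given: 4.65e-15 for Xist, 1.05e-09 for Slco1a1, 0.000973 for Mup7, 2.06e-12 for Eif2s3y, 6.21e-12 for Uty, 3.22e-13 for Ddx3y and 6.68e-11 for Kdm5d. Star, alone among the 24 genes with the largest differences, was not called by this test.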

How the results depend on the processing

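The 5 counts of called genes stayed within 1.5 times their value under all 14 alternatives that could be fitted, and no named gene that was called changed sign. Genes higher in Control_captopril numbered between 1816 (without Control_water library 2) and 2560 (upper-quartile scaling), and genes lower between 2028 (without Control_captopril library 2) and 2551 (replicate block). Upper-quartile scaling changed the split to 2560 higher and 2200 lower, beside 2247 and 2484, and moved the median of all tested genes to 0.0425; DESeq2 gave 2049 and 2476. Leaving out both libraries with most adrenal RNA, an alternative chosen after seeing the data, gave 1996 and 2210. With the replicate number of the titles as a block the counts were 2285 and 2551, and 7566 for the interaction. Same-numbered control libraries correlated at 0.145, 0.00368 and 0.108 in their deviations from group means. Over all pairs of groups the values ran from -0.203 to 0.249. Correlations over all genes cannot settle whether same-numbered samples share more than a number. Both libraries with most adrenal RNA are library 3 of their group. Per alternative, between 0 and 12 of the named genes lost their call; Star, Cyp11b1, Cyp11a1 and Hsd3b1 lost it without Control_captopril library 3 and without any 1 of the Control_water libraries, as did Cyp21a1. Between 0 and 3 gained a call per alternative: Jchain with DESeq2, with the 6 control libraries only, with the replicate block and without both libraries with most adrenal RNA, Akr1cl with the replicate block and without Control_captopril library 1 or 2, Havcr1 without Control_captopril library 1, Angptl4 without Control_captopril library 2, Akr1b7 without Control_captopril library 3, and Akr1b7 and Per1 without both libraries with most adrenal RNA. Akr1b7, also among the renin cell markers, lay lower in Control_captopril libraries 1 and 2 (2.78 and 1.66 CPM) than in Control_water (5.54, 6.55 and 14.1 CPM). With 31.8 CPM in library 3 its fitted log2 fold change was 0.47. Per1 also lay lower in libraries 1 and 2 (13.3 and 12.9 CPM, against 13.9, 20.3 and 19.1 CPM). Of 104 counts of list members, between 0 and 18 moved by over 1.5 times per alternative. Limits: 3 libraries a group, no known number of mice per library, labels that coincide with sex-linked markers, and genes with near copies.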
